A study of Mus musculus with 12 samples.

Results

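The 44 genes described here encode proteins that copy DNA in S phase or carry the cell through G2, mitosis and cytokinesis, together with 3 transcription factors that switch such genes on. They were taken as the rows of the deposited table whose gene name equals one of 44 listed names. All 44 were present among the 17637 genes of the table, and all 44 passed the minimum mean value of 1 that left 14779 genes for testing. For the account below they were divided by role into 16 genes of DNA replication, 25 genes of G2 and mitosis, and 3 regulators (E2f1, Foxm1 and Mybl2). The rule uses names alone and no measured value, though the names were listed with earlier results of these data known.

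The RNA was that of wild-type embryos of the CD1 mouse stock, collected at E16.5 of gestation, and no allele or agent is named for any of them. The artery group (6 libraries) was made from the mesothelial and sub-mesothelial layers dissected from the base of the great arteries, and the ventricle group (6 libraries) from the epicardium and sub-epicardium of the ventricles. Each library pooled the embryos of 1 litter, and each of litters 1 to 6 gave a library to both groups, so the litter is the replicate. Values are the normalized values of the deposited table, where each is (reads + 0.5) expressed as CPM over a scaled library size. A log2 difference is artery minus ventricle on the log2(value + 1) scale.

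A dividing cell first licenses its origins of replication by loading the MCM2-7 helicase with the help of Cdc6 and Cdt1, then fires them and copies its DNA with nucleotides made by ribonucleotide reductase. Transcripts of these genes are switched on towards S phase by E2F factors, once the retinoblastoma family of repressors has been released. Genes of G2 and mitosis follow later, through the MuvB complex with B-Myb (Mybl2) and Foxm1, and their products build the spindle, attach chromosomes to it and destroy cyclins and securin when division ends. Most of the transcripts are scarce in resting cells. In late gestation the epicardium and the cells beneath it, like the muscle they cover, still divide while the heart grows.

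Read totals were 6.77 M in artery 1, 7.97 M in artery 6 and 16.45 to 22.1 M in the other 10 libraries, and the smallest number of reads behind any value of the 44 genes was 34. Artery 1 stood apart from all other libraries on the second principal component (23.79% of the variance), and artery 4 was the artery library nearest to the ventricle group on the first (47.28%). The epicardial and mesothelial markers were present in every library, at a summed value of 1739 to 3535 in artery and 2902 to 5495 in ventricle. All 12 of them were lower in artery by the limma test used below, beside 11.8% of all tested genes.

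The cell cycle genes were lower in the artery layers. All 44 had a log2 difference below 0, from -0.82 for Rrm2 to -0.01 for Gins2, with a median of -0.34, whereas 55.2% of all tested genes were below 0 and their median was -0.04. By limma with Benjamini-Hochberg adjustment over the 14779 genes, 18 of the 44 fell in artery and 0 rose, while 11.8% of all tested genes fell and 12.2% rose. The other 26 did not pass. At an unadjusted p under 0.05 the counts were 31 lower and 0 higher, beside 18.7% of all tested genes lower. On reads recovered from the table, edgeR called 15 lower and 0 higher (9.9% and 13.4% of all tested genes), DESeq2 called 19 and 0 (13.3% and 14.9%), and limma-voom called 16 and 0 (11.7% and 13.2%). None of these counts used the litter. With the litter as a block, limma called 19 lower, beside 12.6% of all tested genes, with 3 calls gained and 2 lost. Because the libraries are bulk RNA, fewer cycling cells and less of these transcripts in each cell cannot be told apart.

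**Figure D1:**
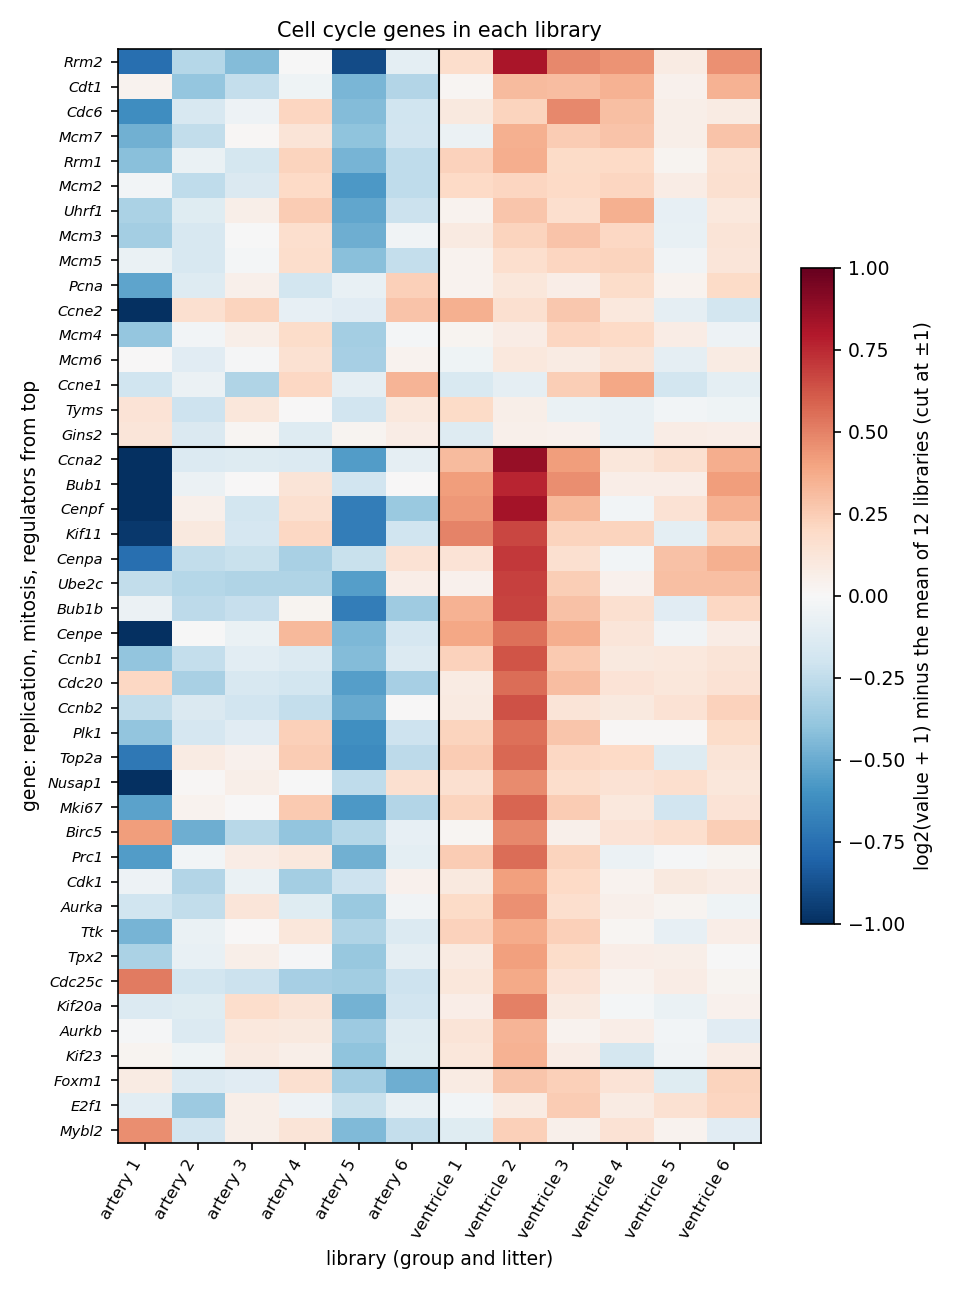
Heat map of the 44 genes (rows, in the order replication, mitosis, regulators) in the 12 libraries (columns). Colour is log2(value + 1) minus the gene's mean over 12 libraries, with colours cut at 1 in each direction, and the black lines separate groups and roles. Ventricle 2 is the reddest column for the mitosis genes, and artery 1 and artery 5 are the bluest artery columns.

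The libraries did not contribute evenly. Artery 5 was the lowest artery library for 22 of the 44 genes and artery 1 for 15, while artery 4 was the highest artery library for 21. Among the ventricle libraries, ventricle 2 was the highest for all 25 mitosis genes but for 3 of the 16 replication genes. Within litters, 17 of the 44 genes were lower in artery in all 6 litters (beside 13.9% of all tested genes), 19 in 5, 6 in 4 and 2 in 3. For 4 genes (Rrm2, Ccna2, Ccnb1 and Ccnb2) every artery library lay below every ventricle library, a pattern that 4.25% of all tested genes showed. When each litter and each library was left out in turn, 18 omissions in all, 6 of the 18 calls stood every time: Rrm2, Cdt1, Ccna2, Ccnb1, Ccnb2 and Ube2c. The count of 18 came to 7 without litter 2, litter 3 or litter 5, when 8.37%, 5.69% and 6.75% of all tested genes fell. It came to 10 without litter 6, ventricle 2 alone or artery 5 alone, when 8.88%, 9.26% and 9.11% fell.

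The library descriptions name sequencing lanes, which were not balanced between the groups. In lane 2 (artery 2, 4 and 5 and ventricle 1, 2, 4 and 5) 43 of the 44 genes were below 0 with a median of -0.31, and 4 fell and 0 rose, beside 2.29% and 6.76% of all tested genes. In lane 1 (artery 1 and 3 and ventricle 3 and 6) 39 of the 44 were below 0 with a median of -0.37. There 0 fell and 0 rose, beside 0.683% and 1.49% of all tested genes. At an unadjusted p under 0.05 the lane 1 counts were 6 and 0, but the matching share of all tested genes was not taken. Neither edgeR nor DESeq2 was run within lanes. With lane as a term 14 of the 44 fell, all among the 18 (11.7% of all tested genes), a fit in which artery 6 does not bear on the difference because it is alone in its lane. Whether equal lane numbers belong to the same flow cell is not given in the sources used here, so libraries of 1 lane number may not share a run.

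Summed over each role, replication genes reached 743 to 1042 in artery (mean 887 ± 106, SD, n = 6) and 970 to 1148 in ventricle (1073 ± 68.6, n = 6), so the artery mean was 82.6% of the ventricle mean. Mitosis genes reached 1005 to 1476 in artery (1251 ± 190.5) and 1437 to 2145 in ventricle (1668 ± 251), an artery mean of 75.0%. Both sums were lower in artery in 6 of 6 litters, and both ranges overlapped between groups. Litter by litter, the artery mitosis sum was 62.4% of its ventricle partner in litters 1 and 2, 69.9% in litter 5, 80.4% in litter 6, 82.1% in litter 3 and 98.1% in litter 4. In litter 4 the tissues were thus nearly level for mitosis genes, and there the replication sum was 92.8%. The 3 regulators summed to 81.1 to 109.7 in artery and 102 to 118 in ventricle, and litter 1 ran the other way, at 107%.

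**Figure D2:**
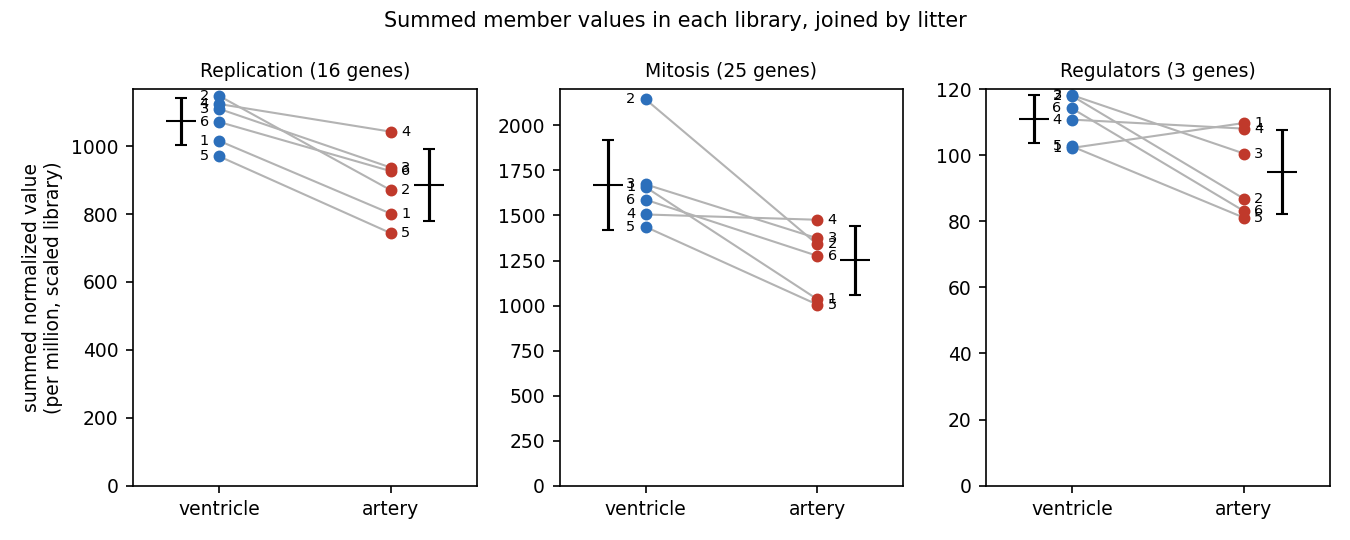
Summed normalized value of the 16 replication, 25 mitosis and 3 regulator genes in each library (y axis, CPM of the scaled library), with grey lines joining the ventricle and artery library of 1 litter, litter numbers beside the points, and the mean ± SD of 6 libraries beside each group. Lines fall in 6 of 6 litters for replication and mitosis and in 5 of 6 for regulators, with litter 4 nearly flat for mitosis.

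The mitosis sum divided by the replication sum was 1.29 to 1.54 in artery and 1.34 to 1.87 in ventricle. It was lower in artery in litters 1, 2, 3, 5 and 6 and higher in litter 4 (1.42 against 1.34). The ranges of that ratio overlapped, its largest value was that of ventricle 2, and no test was run on it.

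Among the 16 replication genes, with a median difference of -0.26, 6 fell and 0 rose (11.8% and 12.2% of all tested genes). These were Rrm2 and Rrm1 of ribonucleotide reductase, the licensing factors Cdt1 and Cdc6, and the helicase subunits Mcm7 and Mcm2. With the litter as a block, when 12.6% of all tested genes and 19 of the 44 fell, 8 of these 16 did, among them the same 6, with Mcm3 (limma, adjusted p = 0.0365) and Uhrf1 (limma, adjusted p = 0.0324) added.

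Rrm2 encodes the small subunit of ribonucleotide reductase, the enzyme that makes deoxynucleotides, and its transcript rises towards S phase. Its normalized value ran from 31.2 to 58.7 in artery (median 45.7) and from 62.5 to 104 in ventricle (median 81.0). The groups did not overlap, artery 5 and artery 1 were lowest, and ventricle 2 was highest. Its log2 difference was -0.82 ± 0.16 (SE; limma, adjusted p = 0.00242), the largest of the 44 in size, and its artery mean was 56.6% of the ventricle mean. Rrm1, the large subunit, which carries the active site, ran from 78.9 to 127 in artery (median 94.1) and from 111 to 141 in ventricle (median 125). Only artery 4 reached into the ventricle range, where it lay above ventricle 4. Its difference was -0.39 ± 0.11 (limma, adjusted p = 0.0224), and the call was lost in 7 of the 18 omissions.

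Cdt1 and Cdc6 bring the MCM helicase to origins. Cdt1 ran from 23.0 to 32.7 in artery (median 26.4) and from 32.3 to 41.0 in ventricle (median 39.9). The overlap was narrow and came from litter 1, in which artery 1, the highest artery library, exceeded ventricle 1. The difference was -0.46 ± 0.11 (limma, adjusted p = 0.00627). Cdc6, an ATPase that binds the origin recognition complex, was scarcer, at 7.90 to 14.9 in artery (median 11.1) and 13.3 to 18.1 in ventricle (median 14.3). It was lower in artery in 6 of 6 litters although artery 4 reached the ventricle range. Its difference of -0.42 ± 0.14 (limma, adjusted p = 0.0429) was lost in 16 of the 18 omissions.

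The 6 MCM subunits form 1 ring, yet 2 of them passed the test. Mcm7 ran from 58.7 to 89.8 in artery (median 70.6) and from 79.1 to 105 in ventricle (median 99.4). Artery 3 and artery 4 lay within the ventricle range and the other 4 artery libraries below it. The difference was -0.39 ± 0.11 (limma, adjusted p = 0.0222), and 12.6% of its exonic bases overlap other genes. Mcm2 ran from 48.9 to 84.4 in artery (median 63.8) and from 77.3 to 85.3 in ventricle (median 84.6), a difference of -0.35 ± 0.11 (limma, adjusted p = 0.0287). The ventricle libraries were tightly grouped for Mcm2, and only artery 4 reached them. The calls of Mcm7 and Mcm2 were lost in 7 and 12 of the 18 omissions. The other subunits had differences of -0.28 for Mcm3, -0.24 for Mcm5, -0.18 for Mcm4 and -0.09 ± 0.09 for Mcm6, which ran from 96.5 to 134.8 in artery and from 114 to 133 in ventricle (limma, adjusted p = 0.505). The subunits' differences were not tested against one another.

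Set per kilobase of the longest coding transcript, so that genes can be compared, the level of the 6 MCM subunits in ventricle ran from 19.6 ± 1.39 for Mcm5 to 32.1 ± 3.44 for Mcm7 (SD, n = 6). In artery the level ran from 16.6 ± 2.36 for Mcm5 to 27.2 ± 2.98 for Mcm6. Mcm7, first in ventricle, was second to Mcm6 in artery, by less than the spread of either. Pcna, the sliding clamp that holds polymerases on DNA, had the highest level per kilobase of the replication genes, at 61.5 ± 10.7 in artery and 70.2 ± 3.51 in ventricle.

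Pcna itself did not pass. Its normalized value was 68.2 to 117 in artery (median 92.3) and 101 to 113 in ventricle (median 105.5), and artery 6 was above every ventricle library while artery 1 was far below. Its log2 difference was -0.21 ± 0.11 (limma, adjusted p = 0.195), with 5 of 6 litters lower. The 2 annotated pseudogenes of Pcna could take or lend reads, so its value is less certain. Uhrf1, which helps to copy DNA methylation onto the new strand, had a difference of -0.29. Thymidylate synthase (Tyms) and the GINS subunit Gins2 were the genes nearest to 0, at -0.01 each. For Tyms, 1 annotated pseudogene could take or lend reads. Tyms ran from 26.7 to 34.2 in artery and 29.4 to 35.5 in ventricle, and Gins2 from 39.3 to 47.6 and 39.8 to 45.9. For both, the artery range held most of the ventricle range, though 67.3% of the exonic bases of Gins2 overlap Gse1 on the other strand, and the counting is not stated to use strand. The cyclins that drive entry into S phase had differences of -0.03 for Ccne1 and -0.21 for Ccne2.

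**Figure D3:**
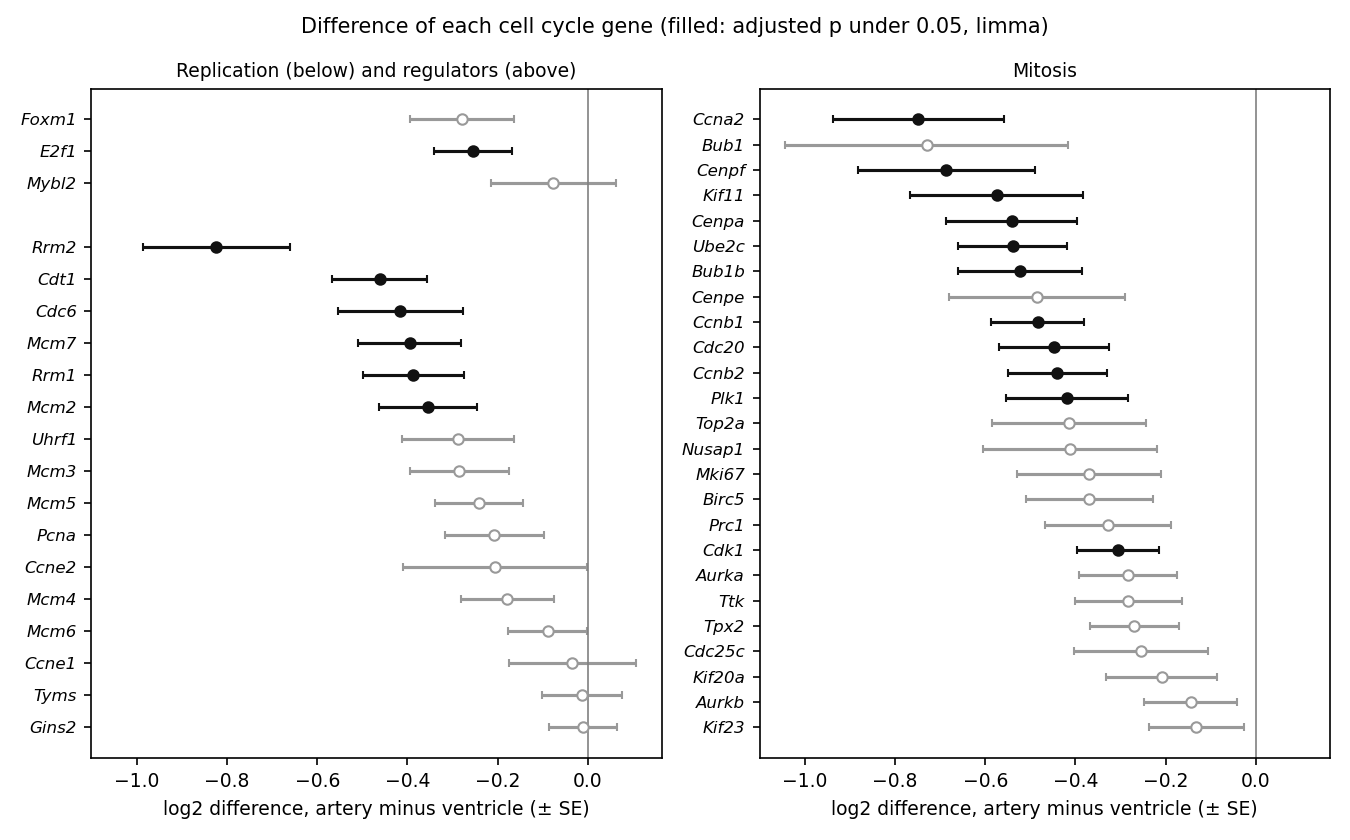
Log2 difference (artery minus ventricle, x axis) ± SE for each of the 44 genes, regulators and replication genes on the left and mitosis genes on the right, with filled points for an adjusted p under 0.05 by limma. All points lie left of 0, from -0.82 for Rrm2 to -0.01 for Gins2, and 18 are filled.

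The promoters of replication genes are shown because letters that E2F factors can bind were more common among them than among the mitosis genes below. RefSeq's table for GRCm38.p6 held a promoter window, 250 bases before the transcription start and 50 after it, for 35 of the 44 genes. The letters TTCCCGC were counted as an E2F-like motif on either strand, and so were the variant TTGGCGC, the variant TTCGCGC and the variant TTGCCGC. Such a motif was found in 9 of 13 replication genes with a window (69.2%), in 3 of 20 mitosis genes (15.0%) and in 10.9% of the 27025 genes of the table. Of the 6 replication genes that fell, 5 held such letters, and of the 7 with a window that did not pass, 4 did. The 150 bases before the start follow for Rrm2 (chr12:24708104-24708253, plus strand) and Cdt1 (chr8:122567865-122568014, plus strand), which had the largest differences among the replication genes that fell, and for Rrm1 (chr7:102441545-102441694, plus strand) and Mcm6 (chr1:128359706-128359855, minus strand), which were picked after the motif positions were seen. They are written 5′ to 3′ on the gene's strand, with capitals for E2F-like letters and for CCAAT boxes (CCAAT, or ATTGG on the other strand).
Rrm2: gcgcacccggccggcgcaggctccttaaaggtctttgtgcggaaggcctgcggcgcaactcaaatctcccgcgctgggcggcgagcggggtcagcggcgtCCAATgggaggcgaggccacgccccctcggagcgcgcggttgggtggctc
Cdt1: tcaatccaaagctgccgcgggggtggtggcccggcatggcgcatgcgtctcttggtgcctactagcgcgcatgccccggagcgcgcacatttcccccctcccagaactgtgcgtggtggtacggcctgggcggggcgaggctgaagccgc
Rrm1: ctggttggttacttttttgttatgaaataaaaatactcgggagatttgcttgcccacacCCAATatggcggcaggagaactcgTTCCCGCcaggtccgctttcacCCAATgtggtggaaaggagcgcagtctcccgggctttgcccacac
Mcm6: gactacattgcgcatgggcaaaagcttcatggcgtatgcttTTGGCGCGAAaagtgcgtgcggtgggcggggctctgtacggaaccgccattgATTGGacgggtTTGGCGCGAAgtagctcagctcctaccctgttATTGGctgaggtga
Mcm6, which did not pass, has the run ttggcgcgaa in 2 places. Each counts on both strands because 2 of the variants overlap there, TTGGCGC on the gene's strand and TTCGCGC on the other. Rrm1, which fell, has 1 E2F-like motif at -67 to -61 (counted from -1, the base before the start) between 2 CCAAT boxes. Rrm2 shows 1 CCAAT box in this stretch and has its E2F-like letters further up, at -235 to -229. Cdt1 has none here and holds E2F-like letters after the start, at 19 to 25 and at 34 to 40. A match describes letters and does not show binding.

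Among the 25 genes of G2 and mitosis, with a median difference of -0.41, 11 fell and 0 rose (11.8% and 12.2% of all tested genes). They include the mitotic cyclins Ccna2, Ccnb1 and Ccnb2 with their kinase Cdk1, the anaphase-promoting complex partners Cdc20 and Ube2c, the centromere proteins Cenpa and Cenpf, the checkpoint kinase Bub1b, the spindle motor Kif11 and the kinase Plk1. All 25 were below 0, from -0.75 for Ccna2 to -0.13 for Kif23. In all 6 litters 9 were lower in artery (13.9% of all tested genes), 13 were so in 5 and 3 in 4.

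Cyclins set the timing of mitosis by activating Cdk1. Ccna2, the cyclin of S phase and G2, ran from 33.0 to 72.8 in artery (median 70.4) and from 83.9 to 142.6 in ventricle (median 98.1). The groups did not overlap, and artery 1 lay far below the other artery libraries. Of its exonic bases, 12.5% overlap Exosc9 on the other strand. The difference was -0.75 ± 0.19 (limma, adjusted p = 0.0111). Ccnb1, the main mitotic cyclin, ran from 36.6 to 46.2 in artery (median 43.7) and from 53.6 to 77.8 in ventricle (median 56.6), again without overlap. Its artery libraries were closely grouped, and its difference was -0.48 ± 0.10 (limma, adjusted p = 0.00411), the smallest adjusted p of the mitosis genes.

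Ccnb2, a cyclin of the same class, ran from 28.9 to 41.5 in artery (median 35.4) and from 43.9 to 64.6 in ventricle (median 45.5), without overlap. Its difference was -0.44 ± 0.11 (limma, adjusted p = 0.0103). Ccnb1 and Ccnb2 each have 1 annotated pseudogene whose reads could be mixed with theirs. Cdk1, the kinase that these cyclins bind, ran from 49.4 to 64.5 in artery (median 57.0) and from 64.2 to 83.7 in ventricle (median 67.1). Artery 6 alone reached the ventricle range. Its difference of -0.30 ± 0.09 (limma, adjusted p = 0.0258) did not pass with the litter as a block (limma, adjusted p = 0.0513). Cdc25c, the phosphatase that activates Cdk1, had a difference of -0.25 (limma, adjusted p = 0.241), and without artery 1, where it was 12.3 against 6.29 to 7.16 in the other artery libraries, -0.38 (limma, adjusted p = 0.00842).

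Cdc20 and Ube2c work with the anaphase-promoting complex, which marks cyclin B and securin for destruction. Ube2c, the ubiquitin-conjugating enzyme, ran from 33.8 to 52.5 in artery (median 40.7) and from 51.5 to 80.9 in ventricle (median 60.7). The ranges touched through artery 6 alone. The difference was -0.54 ± 0.12 (limma, adjusted p = 0.00567), though 22.8% of its exonic bases overlap Tnnc2 on the other strand. Cdc20, the activating subunit, ran from 36.2 to 61.9 in artery (median 44.7) and from 56.6 to 79.2 in ventricle (median 59.0). Artery 1 was the highest artery library and alone lay within the ventricle range. The difference was -0.45 ± 0.12 (limma, adjusted p = 0.0169), lost in 3 of the 18 omissions.

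At the centromere, Cenpa, the histone variant that marks the site of kinetochore assembly, ran from 26.03 to 49.3 in artery (median 37.7) and from 43.8 to 73.5 in ventricle (median 52.4). Artery 6 overlapped the ventricle range and the other artery libraries lay below it. Its difference was -0.54 ± 0.14 (limma, adjusted p = 0.0148). Cenpf, a large protein of the outer kinetochore, ran from 33.4 to 77.5 in artery (median 57.1) and from 67.9 to 124 in ventricle (median 87.5). Artery 4 and artery 2 lay within the ventricle range, and artery 4 exceeded ventricle 4. The difference was -0.69 ± 0.20 (limma, adjusted p = 0.0207).

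Bub1b (BubR1), which delays anaphase until chromosomes are attached, ran from 26.6 to 44.4 in artery (median 36.6) and from 40.2 to 70.2 in ventricle (median 51.9). Artery 1 and artery 4 reached the ventricle range, yet every litter was lower in artery. The difference was -0.52 ± 0.14 (limma, adjusted p = 0.0140). Its partner kinase Bub1 ran from 5.00 to 26.6 in artery and from 25.4 to 41.7 in ventricle, with a difference of -0.73 ± 0.31 that did not pass (limma, adjusted p = 0.111). The low value was that of artery 1, and without that library the difference was -0.39 (limma, adjusted p = 0.0274). Cenpe (-0.49) and Ttk (-0.28), a kinesin and a kinase of the same checkpoint, did not pass.

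Kif11, the motor that pushes the spindle poles apart, ran from 22.1 to 51.3 in artery (median 38.7) and from 41.1 to 70.7 in ventricle (median 51.8). Artery 2 and artery 4 lay within the ventricle range. The difference was -0.57 ± 0.19 (limma, adjusted p = 0.0433), lost in 14 of the 18 omissions. Plk1, a kinase of mitotic entry and exit, ran from 20.97 to 38.6 in artery (median 28.5) and from 32.9 to 48.1 in ventricle (median 37.7). Artery 4 alone reached the ventricle range, and the difference of -0.42 ± 0.14 (limma, adjusted p = 0.0371) was also lost in 14. The spindle genes Tpx2 (-0.27), Nusap1 (-0.41) and Prc1 (-0.33), the kinases Aurka (-0.28) and Aurkb (-0.14), their partner Birc5 (-0.37) and the cytokinesis motors Kif20a (-0.21) and Kif23 (-0.13) did not pass. Kif23, the smallest difference of the list, ran from 32.1 to 45.8 in artery and from 37.9 to 54.8 in ventricle, with wide overlap. Birc5 (survivin) passed without artery 1, where it was highest (limma, adjusted p = 0.00228). The same omission added the regulator Foxm1 (limma, adjusted p = 0.045). It also lost the calls of Kif11, Plk1 and Cdc6 (limma, adjusted p = 0.0581, 0.0519 and 0.0531).

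The common proliferation markers Mki67 and Top2a did not pass. Mki67, which coats mitotic chromosomes, ran from 140.0 to 251 in artery (median 190.2) and from 184 to 313 in ventricle (median 237). The groups overlapped, artery 5 and artery 1 were lowest, and artery 4 exceeded ventricle 4. The difference was -0.37 ± 0.16 (limma, adjusted p = 0.112). Top2a, the topoisomerase that untangles sister chromatids, ran from 109.7 to 216 in artery (median 168) and from 166 to 270.0 in ventricle (median 209). It was lower in artery in 5 of 6 litters, with a difference of -0.41 ± 0.17 (limma, adjusted p = 0.0978), and passed with the litter as a block (limma, adjusted p = 0.0442). Per kilobase of transcript, Top2a had the highest level of the mitosis genes, at 30.96 ± 8.24 in artery and 40.5 ± 6.49 in ventricle.

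The promoters of mitosis genes are shown for the CHR, the element TTTGAA through which MuvB complexes bind genes of G2 and mitosis, and for the CCAAT box, which is often found near it. The CHR letters, on either strand, were found in 15 of 20 mitosis genes with a window (75.0%), in 1 of 13 replication genes (7.69%) and in 20.2% of all genes of the table. CCAAT was found in 18 of 20 mitosis genes (90.0%), 9 of 13 replication genes (69.2%) and 41.1% of all genes. Of the 10 mitosis genes that fell and had a window, 9 held the CHR letters, and of the 10 that did not pass, 6 did. The 150 bases before the start are given for Cenpf (chr1:189688087-189688236, minus strand) and Kif11 (chr19:37376232-37376381, plus strand), which had the largest differences among mitosis genes that fell and had a window, and for Cdk1 (chr10:69352913-69353062, minus strand), picked after the motif positions were seen. Capitals mark CHR (TTTGAA, or TTCAAA on the other strand), CCAAT and E2F-like letters.
Cenpf: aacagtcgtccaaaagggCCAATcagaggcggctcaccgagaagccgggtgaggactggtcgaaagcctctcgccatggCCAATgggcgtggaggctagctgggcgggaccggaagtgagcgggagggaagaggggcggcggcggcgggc
Kif11: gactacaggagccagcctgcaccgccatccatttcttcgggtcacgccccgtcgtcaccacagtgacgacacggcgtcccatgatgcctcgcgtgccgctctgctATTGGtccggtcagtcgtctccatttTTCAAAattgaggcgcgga
Cdk1: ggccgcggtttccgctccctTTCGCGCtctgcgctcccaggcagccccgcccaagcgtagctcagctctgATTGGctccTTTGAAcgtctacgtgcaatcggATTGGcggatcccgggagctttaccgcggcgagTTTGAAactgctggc
Cdk1 has 2 CHR motifs, at -71 to -66 and -15 to -10, each with a CCAAT box upstream, and 1 E2F-like motif in the same stretch. Kif11 has a CHR at -19 to -14 on the other strand with a CCAAT box at -45 to -41. Cenpf has 2 CCAAT boxes here and its CHR letters lie after the start, at 3 to 8. As for the replication genes, these are matches of letters.

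Of the 3 regulators, 1 fell, beside 11.8% of all tested genes. E2f1, the activator of replication genes, ran from 27.9 to 37.6 in artery (median 33.8) and from 35.3 to 43.3 in ventricle (median 39.2). Artery 3 alone lay within the ventricle range. The difference was -0.25 ± 0.09 (limma, adjusted p = 0.0465), which was lost in 12 of the 18 omissions and with the litter as a block (limma, adjusted p = 0.0594). Foxm1, the activator of mitosis genes, ran from 32.7 to 52.0 in artery (median 42.3) and from 42.5 to 56.5 in ventricle (median 52.6), a difference of -0.28 ± 0.12 (limma, adjusted p = 0.0978) between overlapping groups. Mybl2, the partner of MuvB, ran from 14.1 to 27.2 in artery (median 18.6) and from 17.8 to 23.2 in ventricle (median 20.1). Its artery range enclosed the ventricle range, with artery 1 above it and artery 2, 5 and 6 below it, and the difference was -0.08 ± 0.14 (limma, adjusted p = 0.730).

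The 5 further lists of cell cycle genes, with 158 tested genes in all, gave 25 lower and 1 higher, beside 11.8% and 12.2% of all tested genes. Other shares of all tested genes go with the counts in brackets for these lists. At an unadjusted p under 0.05, 18.7% were lower. By edgeR 9.9% were lower and 13.4% higher, and by DESeq2 13.3% and 14.9%. Among 46 other replication genes 3 fell and 0 rose (7 lower and 0 higher at an unadjusted p under 0.05; edgeR 3 and 0, DESeq2 3 and 0), with a median of -0.15. They were Rpa1 (-0.32 ± 0.09; limma, adjusted p = 0.0154) and Rfc4 (-0.53 ± 0.17; limma, adjusted p = 0.0335), which in that order binds single-stranded DNA and helps to load the clamp, and the helicase partner Cdc45 (-0.33 ± 0.10; limma, adjusted p = 0.0280). That share, 6.52%, was under the share of all genes that fell. Among 68 other mitosis genes 14 fell and 0 rose (30 and 1 at an unadjusted p under 0.05; edgeR 12 and 0, DESeq2 19 and 0), with a median of -0.36. Cdca3, a trigger of mitotic entry, fell by 0.47 (± 0.10; limma, adjusted p = 0.00484). The chromatin protein Hmgb2 fell by 0.73 (± 0.17; limma, adjusted p = 0.00829), and the cytokinesis regulator Racgap1 by 0.50 (± 0.12; limma, adjusted p = 0.00991).

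Upstream of S phase, 4 of 14 G1 cyclins, kinases and their activators fell and 0 rose (5 and 0 at an unadjusted p under 0.05; edgeR 4 and 0, DESeq2 4 and 0). Mycn, a growth-promoting transcription factor, had a mean value of 10.96 ± 3.18 in the artery libraries and 19.5 ± 2.17 in the others (SD, n = 6 each), a difference of -0.81 ± 0.16 (SE; limma, adjusted p = 0.00276). Ccnd1, the cyclin that starts release of the retinoblastoma protein, was 69.2 ± 14.4 in artery and 104 ± 10.2 in ventricle, a difference of -0.60 ± 0.12 (SE; limma, adjusted p = 0.00297). Myc differed by -0.52 ± 0.13 (limma, adjusted p = 0.0101), and Ccnd2 also passed. These 4 of 14 stand beside 11.8% of all tested genes that fell. Mycn, Ccnd1 and Myc were lower in artery in 6 of 6 litters, and all 3 calls stood in all 18 omissions.

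Of 15 tested CDK inhibitors, pocket proteins and growth arrest genes, 2 fell and 1 rose (5 and 1 at an unadjusted p under 0.05; edgeR 2 and 1, DESeq2 2 and 1), and 14 of the 15 were below 0 with a median of -0.24. The share that fell, 13.3%, was near the 11.8% of all tested genes. Btg1, an antiproliferative gene, averaged 124 ± 22.6 across artery libraries and 77.6 ± 9.17 across ventricle libraries (SD, n = 6 each), a difference of 0.65 ± 0.12 (SE; limma, adjusted p = 0.00188), and was higher in 6 of 6 litters. Gas1, named for growth arrest, was 176 ± 50.7 in artery and 317 ± 57.6 in ventricle, a difference of -0.89 ± 0.20 (limma, adjusted p = 0.00593). Gadd45a, a gene of the damage response, differed by -0.76 ± 0.15 (limma, adjusted p = 0.00270). Of 15 other E2F and MuvB genes 2 fell and 0 rose (8 and 0 at an unadjusted p under 0.05; edgeR 2 and 0, DESeq2 4 and 0), which were the MuvB subunit Lin54 (-0.55 ± 0.12; limma, adjusted p = 0.00419) and the E2F partner Tfdp2 (-0.43 ± 0.10; limma, adjusted p = 0.00926). This share too, 13.3%, was near that of all tested genes.

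**Figure D4:**
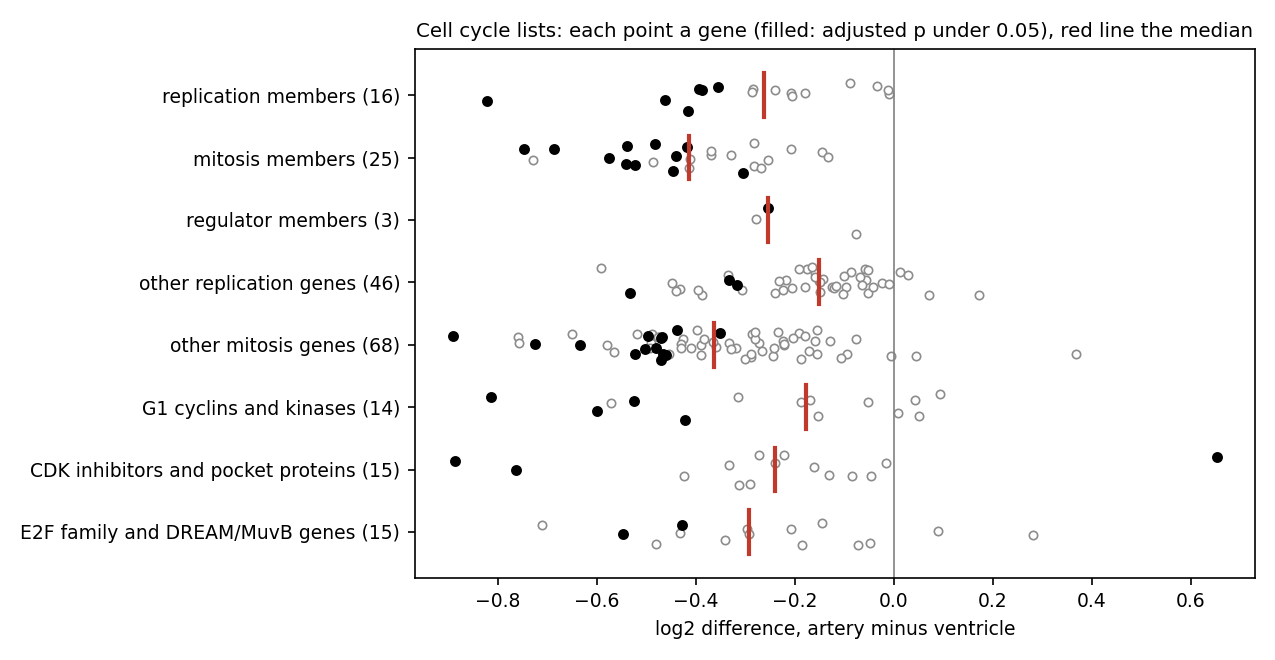
Log2 difference (artery minus ventricle, x axis) of each gene in the 3 groups of the 44 genes and in 5 further cell cycle lists (y axis, number of tested genes in brackets), with filled points for an adjusted p under 0.05 by limma and a red line at the median. The median is -0.41 for the 25 mitosis genes and -0.36 for 68 others, and -0.26 for the 16 replication genes and -0.15 for 46 others.

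Markers of other cell types also differed between the groups in the same libraries. The share of reads taken by heart muscle markers was 1.19 ± 0.585% for artery and 2.28 ± 0.782% for ventricle (SD, n = 6 each; exact permutation test over all assignments of the libraries, two-sided, adjusted over 8 marker lists p = 0.0260), and 9 of 16 of them fell. Of all tested genes, 11.8% fell and 12.2% rose by limma. The call on the share of reads was lost without artery 3, artery 5, ventricle 2 or ventricle 3 (exact permutation, adjusted p from 0.0520 to 0.0563). Their summed value ran from 5165 to 19524 in artery and from 14684 to 38358 in ventricle, with none of the 16 at 0 reads in any library. The highest, 38358, was in ventricle 2, which was also highest for all 25 mitosis genes, while artery 3 and artery 5 were lowest. The marker and mitosis sums were 14684 and 1505.7 in ventricle 4, and 17048 and 1437 in ventricle 5. They were 21062 and 1657.7 in ventricle 1, 22926 and 1673.1 in ventricle 3, and 25158 and 1587.8 in ventricle 6. Ventricle 2 had 38358 and 2145.3. Artery 1, with 6.77 M reads, was the highest artery library for the markers (19524) and had a mitosis sum of 1034.7. Artery 2, 4 and 6 had marker sums of 15835, 12323 and 14396. Their mitosis sums were 1339.4, 1476.3 and 1275.8 in that order. Artery 3 was lowest for the markers (5165) with a mitosis sum of 1373, and artery 5 was low in both (5398.5 and 1005). Epicardial and mesothelial markers took 0.217 ± 0.0647% and 0.413 ± 0.0856% (exact permutation, adjusted p = 0.0115). Smooth muscle markers took 0.262 ± 0.0591% and 0.0573 ± 0.00897% (exact permutation, adjusted p = 0.00866), with 6 of 6 higher and a summed value of 1769 to 3656 in artery and 478 to 758 in ventricle. The part of these differences in the cell cycle result was not tested.

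Erythroid markers took 0.655 ± 0.581% in artery and 0.272 ± 0.0651% in ventricle (exact permutation, adjusted p = 0.0277), a call lost on leaving out any 1 of the ventricle libraries (adjusted p from 0.0750 to 0.170), with Hbb-y at 0 reads in at least 1 library. Neuron markers took 0.00786 ± 0.00233% and 0.00395 ± 0.000416% (exact permutation, adjusted p = 0.00866), with Th and Elavl4 at 0 in at least 1 library. Endothelial (adjusted p = 0.113), fibroblast (adjusted p = 0.156) and macrophage (adjusted p = 0.299) shares did not pass the same exact permutation test. These assignments ignore the litters. When libraries were exchanged within litters only, a test added after seeing the data, the heart muscle, epicardial, smooth muscle, erythroid and neuron shares each differed in 1 direction in 6 of 6 litters. Each had an exact permutation p of 0.03125, the smallest that 64 exchanges can give, and an adjusted p of 0.05, so 0 of the 8 lists passed. Summed values ran from 3222 to 18829 and 1853 to 3905 for the erythroid list, and from 58.6 to 121.6 and 34.3 to 44.7 for the neuron list, in artery and ventricle.

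Artery 1, the library with the fewest reads, deviated from the other 5 artery libraries by -2.05 for Bub1 up to 0.77 for Cdc25c on the log2 scale. Across the 44 genes this deviation rose with the GC content of the transcript (Pearson r = 0.66 over 44 genes that share 1 library, given as a description). The same correlation was -0.69 for artery 2 and -0.61 for ventricle 1, each against the other libraries of its group. For artery 2 those libraries include artery 1, so the values of artery 1 and artery 2 are not independent. Artery 3, 4, 5 and 6, which also have artery 1 in their mean, were at -0.40, -0.15, -0.25 and -0.41. With the GC trend of each library removed, 24 of the 44 genes fell (14.9% of all genes then tested). Without artery 1 and ventricle 2 together 15 fell (12.6%), and without artery 1 and artery 4 together 26 fell (17.9%).

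**Figure D5:**
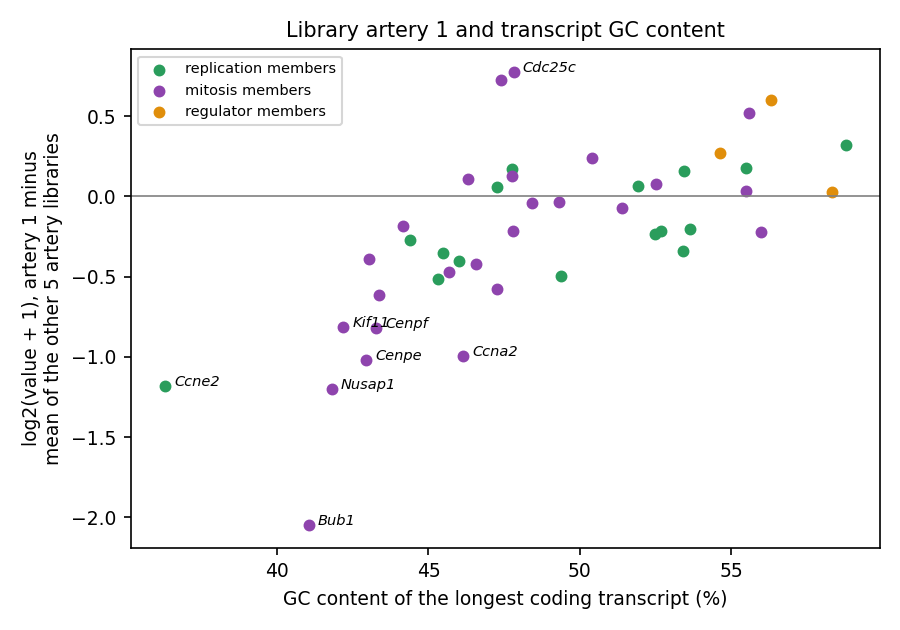
Deviation of artery 1 from the mean of the other 5 artery libraries on the log2(value + 1) scale (y axis) against the GC content of the longest coding transcript in percent (x axis) for the 44 genes, coloured by role. Genes of low GC such as Bub1 (-2.05) lie far below 0, and Cdc25c (0.77) lies highest.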

How the data were processed

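RNA was measured in 12 libraries, 6 of artery and 6 of ventricle layers, made with polyA selection and the NEBNext Ultra kit and sequenced as single reads of 50 bases, per the labels' protocols. CASAVA 1.8.2, cutadapt 1.3, RSEM 1.2.3 and GRCm38 are named in the submitters' processing notes. Which tool normalized the values is not given in the sources used here. In the deposited table the authors' values are a normalized signal. Read back from the values, each is (reads + 0.5) expressed as CPM over a scaled library size, and 100% of 211644 values were whole reads within 0.02 reads. Estimates from RSEM can have decimals, so rounding or another way of counting came before this step.

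Because the table held normalized values and not raw counts, the planned limma test (3.58.1, R 4.3.3, trended and robust prior) was run on log2(value + 1), with a pseudocount of 1 and a minimum mean value of 1 per gene. P-values were two-sided, adjusted by Benjamini and Hochberg over 14779 genes, with a threshold of 0.05. Alternatives on the recovered reads used edgeR 4.0.16, DESeq2 1.42.0 and limma-voom. The counting was not stated to use strand, so 13 of the 44 genes that share exonic bases with another gene, and genes with pseudogene copies, are less certain. Coordinates came from GENCODE M21 and promoters from RefSeq, both for GRCm38. Of the genes of the other cell cycle and marker lists, 3 (Knl1, Haspin and Adgre1) were matched through GENCODE M21 symbols, Sgol2a and Cdkn2a were not matched, and Cdkn2b and Dbh were below the minimum.

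Labels put the artery and ventricle pools of a litter together, so the litter pairs the libraries. The libraries of a litter shared their deviations from the group means with a mean correlation of 0.215 (from -0.0137 in litter 1 to 0.396 in litter 5), against -0.0431 between litters. The planned test had no litter block, which was tried as an alternative. Each litter was its own pool of embryos, and p-values reflect how such pools vary. Within a group every pair of libraries differed by more than sampling noise (chi-square per degree of freedom at least 10.6). Depth of 6.77 to 22.1 M reads limits the scarcest genes.

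The 44 genes and the other lists were chosen with earlier results of these data known. Text was to name all 44 genes, to give library ranges for those past the test and for the highest and the most and least changed of each role, and to name up to 3 genes per direction of each other list. Marker lists were compared by exact permutation of their share of reads, without the litter, and with exchange within litters as an added alternative. No set test was run. The procedure was tested on simulated data.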

Additional observations from a re-analysis of the deposited data

Results flagged for a closer look

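In 10 of the 88 gene and group combinations of the 44 genes, 1 library lay far from the other 5: the gap to its nearest neighbour, as a share of the whole range, exceeded Dixon's 95% critical value for 6 samples. Chance alone flags about 1 in 20 such groups, or 4.4 of 88, and genes of 1 library are not independent.

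Ventricle 2 gave 7 of the 10, all high and all mitosis genes. Ccna2 was 142.6 there against 83.9 to 103.6 in the other ventricle libraries, and Ccnb1 was 77.8 against 53.6 to 59.98. Ccnb2 was 64.6 against 43.9 to 48.5, and Ube2c was 80.9 against 51.5 to 62.0. Kif20a was 69.1 against 46.3 to 51.5, Nusap1 was 54.3 against 42.1 to 44.1, and Cdc25c was 11.0 against 8.44 to 9.18. This library also had the highest summed value of heart muscle markers (38358), whose part in the flags was not tested. The sums of these markers and of the mitosis genes in all 12 libraries are given above.

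Artery 1 gave 2 flags in opposite directions. Cdc25c was 12.3 against 6.29 to 7.16 in the other artery libraries, and Bub1 was 5.00 against 21.1 to 26.6. The last flag was a low value of Mcm2 in ventricle 5, 77.3 against 82.3 to 85.3.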

How the results depend on the processing

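For each of the 18 called genes the direction held in all 37 other settings, while the number called moved with the libraries used. With the litter as replicate block 19 of the 44 genes fell (16 shared), and regulators had 0 calls. In lane 1 only, 321 genes passed in all and 0 of the members, replication, mitosis, regulator and other cell cycle genes. In lane 2 only, 1334 passed in all, with 4 members, 0 replication, 4 mitosis and 0 regulator genes, and 9 of the other lists. Regulators also had 0 calls with no filter, limma without trend and robust prior, edgeR with and without the block, and limma-voom. Without artery 1 and artery 4 there were 2 regulators, 45 genes of the other lists and 26 members, and the endothelial share differed by -0.0198% (exact permutation, adjusted p = 0.0444). The settings chosen after seeing the data gave 3 replication genes and 0 regulators without artery 1 and ventricle 2, and 2 regulators with the GC trend removed, with or without the replicate block (45 of the other lists with it). With exchange within litters (replicate block), also chosen after seeing the data, the heart muscle (-1.09%), epicardial (-0.196%), smooth muscle (0.205%), erythroid (0.383%) and neuron (0.00391%) shares had an adjusted p of 0.05 and did not pass. Causes were not tested.

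Leaving out 1 litter or library at a time, all genes called in either direction ran from 2066 (842 lower) without litter 3 to 4284 (2140 lower) without artery 1. Counts of genes lower in artery were 7 to 26 for members, 2 to 9 for replication, 5 to 15 for mitosis and 0 to 2 for regulators. For the other lists, in either direction, the count was 12 to 35. Marker shares (artery minus ventricle, percent of reads) ran from -1.251 to -0.805 for heart muscle, -0.223 to -0.173 for epicardial, -0.0173 to -0.00867 for endothelial, 0.189 to 0.224 for smooth muscle, 0.503 to 0.970 for fibroblast, 0.153 to 0.452 for erythroid, -0.00342 to -0.00144 for macrophage and 0.00316 to 0.00437 for neuron markers. The heart muscle call was lost in 4 of these omissions and the erythroid call in 6, and the endothelial share passed without ventricle 6 (exact permutation, adjusted p = 0.0485).

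Reversals were seen in 7 genes, none of them called. Gins2 was 0.0143 in lane 1, 0.0065 with edgeR and 0.0051 with its replicate block (omissions -0.0639 to 0.0266). Tyms was 0.177 in lane 1, 0.006 with edgeR, 0.0041 with its block and 0.0298 without the GC trend, with or without the block (omissions -0.0504 to 0.0385). Ccne1 was 0.0281 in lane 2 (omissions -0.130 to 0.0681). Ccne2 was 0.0354 without artery 1 and artery 4, 0.0031 without artery 1 and ventricle 2 and 0.0052 without the GC trend, with or without the block (omissions -0.341 to 0.042). In lane 1, Cdc25c was 0.0699, Aurkb 0.0885 and Mybl2 0.291 (omissions of Mybl2 -0.208 to 0.0047).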
